A study of Mus musculus with 16 samples.

Results

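The genes of the cytosolic ribosome's proteins were followed in liver RNA across 4 oxygen conditions. Members were the protein-coding genes whose mouse symbol names a protein of the large subunit (Rpl, Rplp0, Rplp1, Rplp2) or of the small subunit (Rps, Rpsa), leaving out the Rps6k kinases and copies marked -ps. The rule found 83 of the 55487 genes in the deposited count table, 51 of the large and 32 of the small subunit. Of these, 80 had enough counts to be tested; Rpl10l, Rpl39l and Rpl3l did not.

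Bulk RNA sequencing was done on livers of wild-type C57BL/6J mice aged 12 weeks, so strain, genotype and age were shared by all groups. A control group breathed room air. The other groups were exposed to sustained hypoxia, to intermittent hypoxia, or to overlap hypoxia, which per the series title joins both patterns; each of the 4 groups had 4 libraries, 16 in all. The sources used here do not give oxygen levels, the length of exposure or the hour of collection. The labels do not say whether each library is a separate mouse, so the spread behind each p-value may be technical.

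The cytosolic ribosome pairs a small subunit, which reads the mRNA, with a large subunit, which joins the amino acids. Each subunit is built from ribosomal RNA and a fixed set of proteins, most of them encoded by a single active gene whose mRNA opens with a run of pyrimidines, the terminal oligopyrimidine (TOP) motif, through which mTORC1 signalling controls their translation. Mammalian genomes also carry many processed pseudogenes of these genes, which share long stretches of their sequence. In the liver, whose cells secrete large amounts of plasma protein, these mRNAs are among the more abundant transcripts.

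The smallest library (overlap hypoxia replicate 3) held 10940275 counts and the largest (sustained hypoxia replicate 2) 64789635. The extraction text names retina while the tissue label is liver: 7 hepatocyte markers summed to 53235 to 85029 CPM (counts scaled to library size with TMM factors) in every library, and 6 photoreceptor markers to 2.97 to 10.8 CPM, with Rcvrn at 0. Ribosomal RNA, nearly all of it from 1 annotated gene, held 18.5 to 34.8% of counts in intermittent hypoxia, against 1.57 to 10.2% in room air, 1.55 to 2.77% in sustained and 2.53 to 16.8% in overlap hypoxia. Mitochondrially encoded genes held 6.23 to 11.7% in intermittent hypoxia and 1.18 to 2.75% in room air. Against room air 8 of 9 Kupffer cell markers fell in intermittent hypoxia, and 8 in overlap hypoxia (edgeR's quasi-likelihood test), and their summed level was 105 to 198 CPM in room air, 73.5 to 137 in sustained, 37.9 to 81.9 in intermittent and 41.6 to 51.6 in overlap hypoxia. Of 7 endothelial markers 3 fell in overlap hypoxia, with sums of 35.6 to 64.6 CPM against 82.9 to 105 CPM in room air. In intermittent hypoxia 1 endothelial marker fell and 1 rose, and 2 of 6 stellate markers rose. There 3 of the 7 hepatocyte markers fell, while 4 of the 7 had positive changes. Over all genes 18.3% were called lower and 18.9% higher in intermittent hypoxia, and 2.89% and 3.41% in overlap hypoxia. The part of these shifts in the results below was not tested. In bulk tissue, fewer cells of a type and less RNA per cell cannot be told apart.

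Together the 83 genes made up 1.92, 2.32, 2.56 and 3.11% of all counts in the room air libraries. Their share was 2.93, 2.69, 2.71 and 2.73% in sustained hypoxia. In intermittent hypoxia it was 1.82, 1.23, 1.18 and 1.86%, below every room air library. Overlap hypoxia lay between, at 1.58, 2.67, 1.91 and 2.11%, and overlapped room air. The widest 95% Wilson interval of these shares was ± 0.00811 percentage points; such intervals cover counting error only. When ribosomal RNA and mitochondrial genes were taken out of the total, the member share was 2.21 to 3.20% in room air and 1.96 to 2.59% in intermittent hypoxia, ranges that overlap. On the TMM scale, which is not set by those few abundant genes, the summed member level was 20452 to 28329 CPM in room air and 16058 to 17463 CPM in intermittent hypoxia, which do not overlap. The ribosomal RNA share and the exposure do not overlap between these groups either and cannot be told apart.

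**Figure D1:**
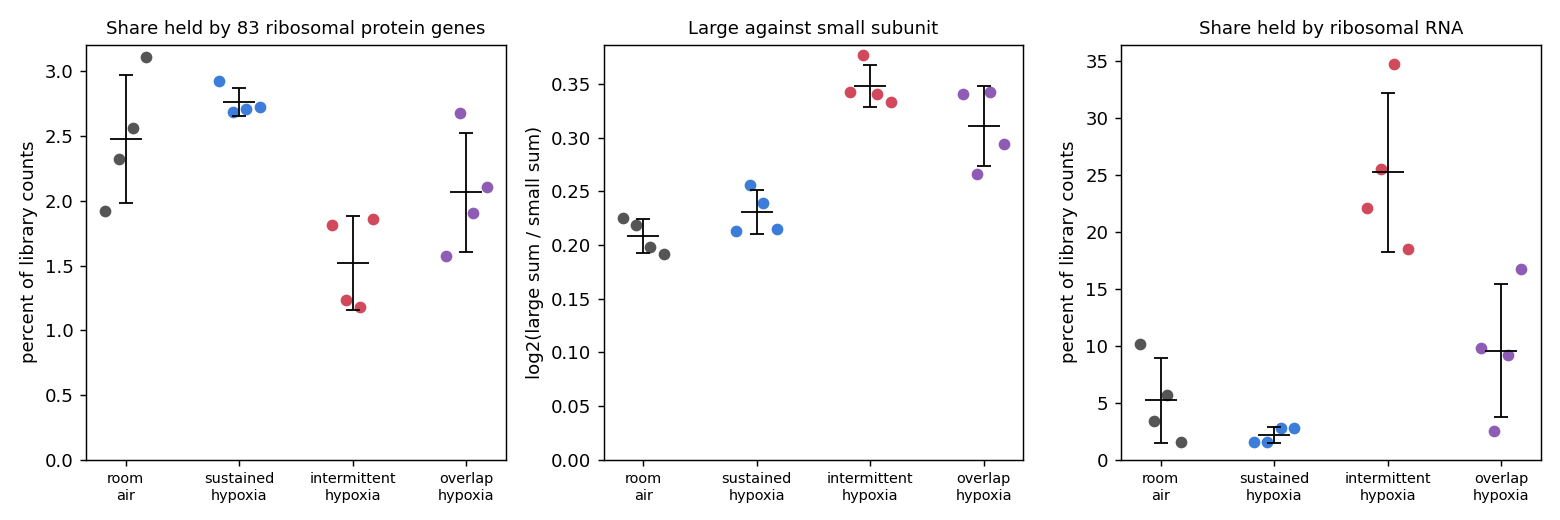
Each point is 1 library, with the group mean and SD as bars (n = 4). The panels show the percent of counts held by the 83 ribosomal protein genes, the log2 ratio of the summed large to the summed small subunit CPM, and the percent of counts held by ribosomal RNA; the 4 intermittent hypoxia libraries lie below room air in the first panel and above it in the others.

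Ribosomal protein transcripts were mostly lower in intermittent hypoxia than in room air. Of the 80 members tested, 53 fell, 5 rose and 22 did not pass (edgeR's quasi-likelihood test, Benjamini-Hochberg adjusted p under 0.05 over all 14553 genes). Across all genes 37.1% were called in this comparison, 18.3% lower and 18.9% higher. The median log2 change of the members was −0.54, against 0.03 over all genes tested, and they ranged from −2.35 for Rpl10 to 0.57 for Rps28. In the plot of all members by subunit, most points of intermittent hypoxia lie left of 0 and those of overlap hypoxia lie between them and 0. For 53 members every intermittent library lay below every room air library, and for 9 every one lay above; over all genes the shares were 18% and 17.4%. In the fits that left out 1 library each, 41 of the 53 fell every time. The fewest, 43 of the 53, remained without room air replicate 4, the room air library with the largest member share.

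The split of 53 lower and 5 higher became 48 and 11 with upper-quartile scaling (36.3% of all genes called, 14.9% lower and 21.5% higher) and 36 and 12 with offsets for gene length and GC content (33.8% of all genes called, 19.3% lower and 14.4% higher, member median −0.30). With the ribosomal RNA share of each library as a covariate no member passed, with a member median of −0.40, a lowest adjusted p of 0.129 and 12 members at an unadjusted p under 0.05, while 0.529% of all genes passed.

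**Figure D2:**
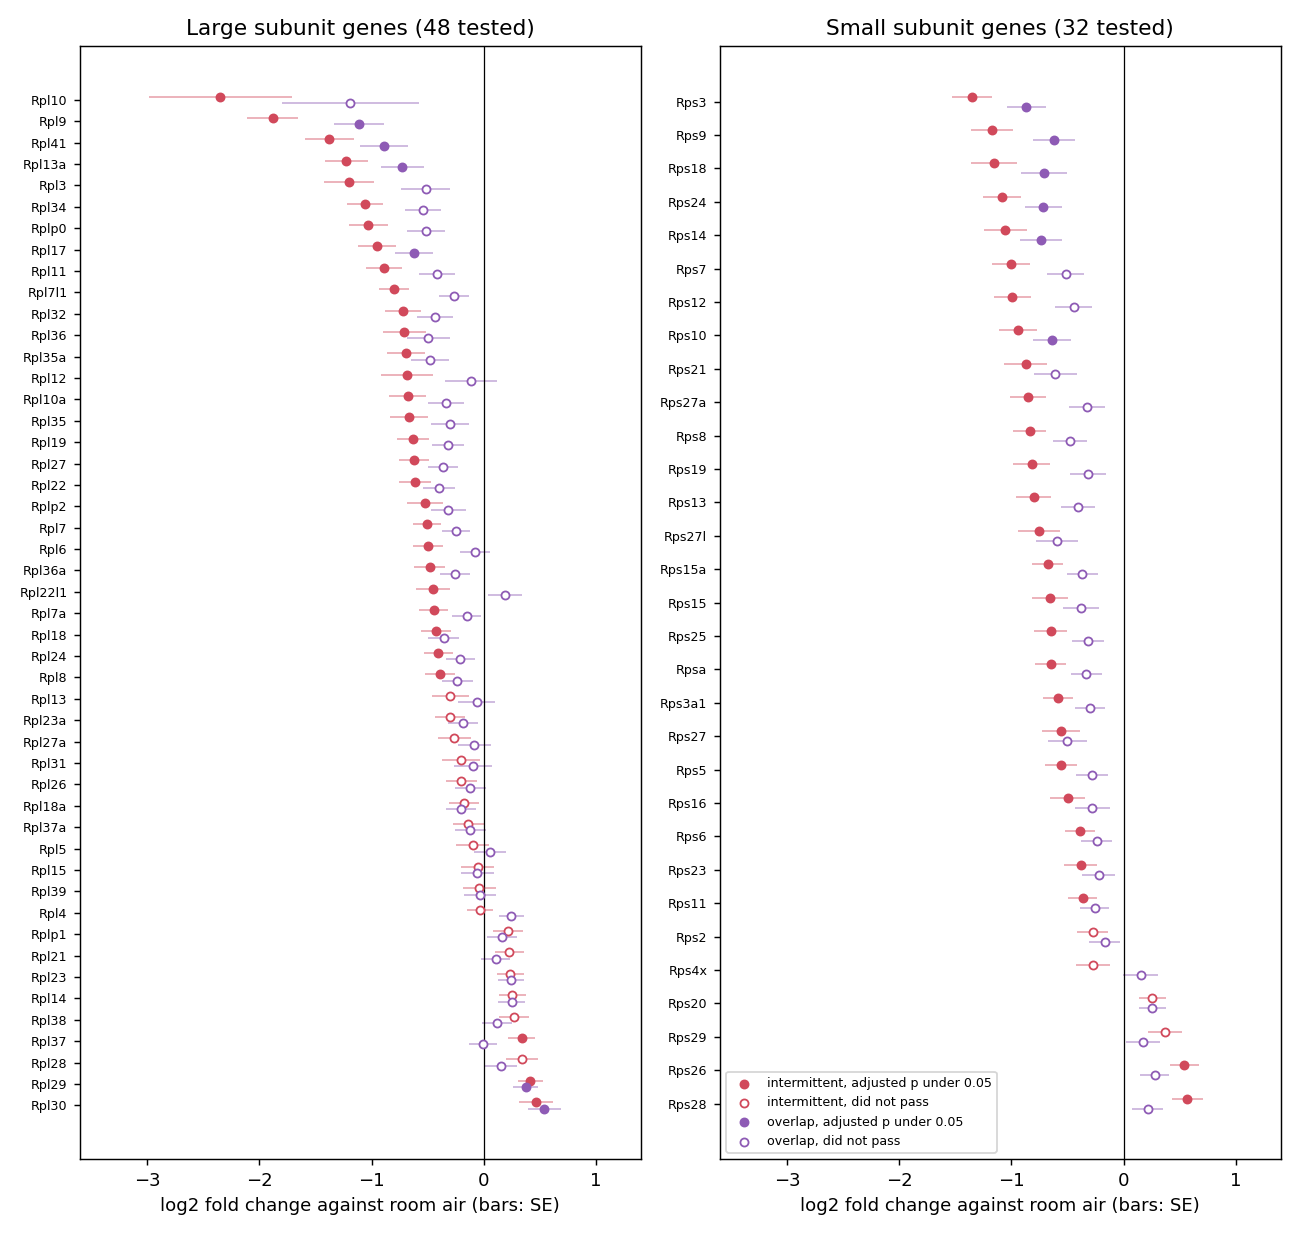
Log2 fold change of the tested members against room air (1 small subunit gene that did not pass is not drawn), large subunit at left and small subunit at right, for intermittent hypoxia (red) and overlap hypoxia (purple); bars are standard errors and filled points passed an adjusted p of 0.05. In intermittent hypoxia 28 large and 25 small subunit genes lie lower with filled points, and 3 and 2 lie higher.

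Of the 32 small subunit genes 25 fell and 2 rose, with a median log2 change of −0.65. Rps3 (ENSMUSG00000030744, chromosome 7, 99477896 to 99483738), which lines the channel where mRNA enters, stood at 362, 496, 499 and 676 CPM in room air, 479.9, 387, 535 and 535 CPM in sustained hypoxia, 209, 182, 177 and 229 CPM in intermittent hypoxia and 237, 338.7, 235.1 and 304 CPM in overlap hypoxia. Each intermittent library lay below each room air library, a 2.55-fold difference (log2 −1.35, SE 0.18, adjusted p = 2.07e-05). Only 2.96% of the 50-base words of its principal transcript occur in other genes.

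Rps24 (ENSMUSG00000025290, chromosome 14, 24487125 to 24496959), a gene mutated in Diamond-Blackfan anaemia, stood at 414, 554, 574 and 628 CPM in room air, 483, 376, 595 and 604 CPM in sustained hypoxia, 227, 245, 281 and 271 CPM in intermittent hypoxia and 257, 371, 328 and 364 CPM in overlap hypoxia. Intermittent hypoxia lay below room air in all libraries (log2 −1.08, SE 0.17, adjusted p = 7.72e-05). Rps14 (ENSMUSG00000024608, chromosome 18, 60747098 to 60778546), whose loss of a copy causes anaemia in a human myelodysplastic syndrome, stood at 363, 558, 506 and 704 CPM in room air, 470.1, 442, 641 and 609 CPM in sustained hypoxia, 234, 264, 245 and 283 CPM in intermittent hypoxia and 254, 418, 276 and 331 CPM in overlap hypoxia. It fell in the same way (log2 −1.05, SE 0.19, adjusted p = 0.000286), without overlap between intermittent hypoxia and room air.

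Rps9 (ENSMUSG00000006333, chromosome 7, 3703993 to 3706897), which also sits at the mRNA entry, went from 517 ± 109 CPM in room air to 229.8 ± 41.4 CPM in intermittent hypoxia (mean ± SD, n = 4; log2 −1.17, SE 0.19, adjusted p = 9.86e-05). Rps18 (ENSMUSG00000008668, chromosome 17, 33951999 to 33956001), a protein of the head of the subunit, was the second most abundant member per length in room air, at 1345 ± 252 CPM per kilobase of its principal transcript. Its level was 559, 768, 790.2 and 896 CPM in room air, 703, 648, 929 and 799.8 CPM in sustained hypoxia, 261, 379, 350.4 and 362 CPM in intermittent hypoxia and 365, 709, 338.3 and 431 CPM in overlap hypoxia. All 4 intermittent libraries lay below room air (log2 −1.16, SE 0.21, adjusted p = 0.000295), while overlap hypoxia replicate 2 reached into the room air range. Rps7, Rps12 and Rps10 fell by 1.003, 0.99 and 0.94 on the log2 scale, and Rpsa, which doubles as the laminin receptor, by 0.65.

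Of the 48 large subunit genes tested 28 fell and 3 rose, with a median log2 change of −0.45. Rpl9 (ENSMUSG00000047215, chromosome 5, 65388364 to 65391444), a protein near the base of the stalks, stood at 270.2, 429, 398 and 542 CPM in room air, 429.9, 308.4, 456 and 438 CPM in sustained hypoxia, 119, 77.4, 101 and 148 CPM in intermittent hypoxia and 148, 239, 158 and 212 CPM in overlap hypoxia. It had the lowest adjusted p among the members and a 3.69-fold lower level in intermittent hypoxia (log2 −1.88, SE 0.22, adjusted p = 1.16e-05). Intermittent hypoxia and room air did not overlap, and 86.7% of its words occur in other genes.

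Rplp0 (ENSMUSG00000067274, chromosome 5, 115559467 to 115563727), which anchors the stalk that recruits elongation factors, stood at 535, 721, 663 and 895 CPM in room air, 732, 571, 734 and 853 CPM in sustained hypoxia, 392, 277, 293 and 415 CPM in intermittent hypoxia and 466, 474, 453 and 577 CPM in overlap hypoxia. Intermittent libraries were all below room air (log2 −1.03, SE 0.17, adjusted p = 0.000165). Of the proteins that dimerise on this stalk, Rplp2 fell by 0.52 (SE 0.16, adjusted p = 0.0141), and Rplp1 stood at 0.21 (SE 0.13, adjusted p = 0.217).

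Rpl10 (ENSMUSG00000008682, chromosome X, 74270812 to 74273135), which joins the large subunit last and completes its active site, had the largest fall but also a wide spread. Its level was 45.6, 63.6, 190.4 and 114 CPM in room air, 173, 32.6, 32.6 and 92.4 CPM in sustained hypoxia, 21.99, 13.2, 20.2 and 25.8 CPM in intermittent hypoxia and 44.1, 28.5, 25.7 and 82.6 CPM in overlap hypoxia. Room air varied from 45.6 to 190.4 CPM among its own libraries, and the intermittent libraries lay below that range (log2 −2.35, SE 0.64, adjusted p = 0.0118). Its words occur in other genes to 92.1%, and 69.4% of the counts of Rpl10 and its pseudogenes together were assigned to the pseudogenes. The call held in each fit that left out 1 library.

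Rpl41 (ENSMUSG00000093674, chromosome 10, 128548114 to 128549305), the smallest protein of the ribosome, was the most abundant member per length in room air, at 1353 ± 369 CPM per kilobase, a level within 1 SD of that of Rps18. It stood at 389, 681, 541 and 753 CPM in room air, 539, 447, 743 and 777 CPM in sustained hypoxia, 267, 186, 213 and 244 CPM in intermittent hypoxia and 249, 429, 294 and 304.7 CPM in overlap hypoxia. The intermittent libraries lay below room air (log2 −1.38, SE 0.22, adjusted p = 0.000103). Rpl13a, which can leave the ribosome to repress translation of inflammatory mRNAs, went from 1009 ± 227 to 431 ± 40.7 CPM (log2 −1.23, SE 0.19, adjusted p = 8.59e-05). Rpl3, a protein close to the peptidyl transferase centre, went from 325 ± 64.4 to 142 ± 45.7 CPM (log2 −1.20, SE 0.22, adjusted p = 0.000401), and Rpl34 from 291 ± 45.8 to 139.8 ± 23.7 CPM (log2 −1.06, SE 0.16, adjusted p = 7.65e-05). None of these 4 genes overlapped between the 2 groups.

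**Figure D3:**
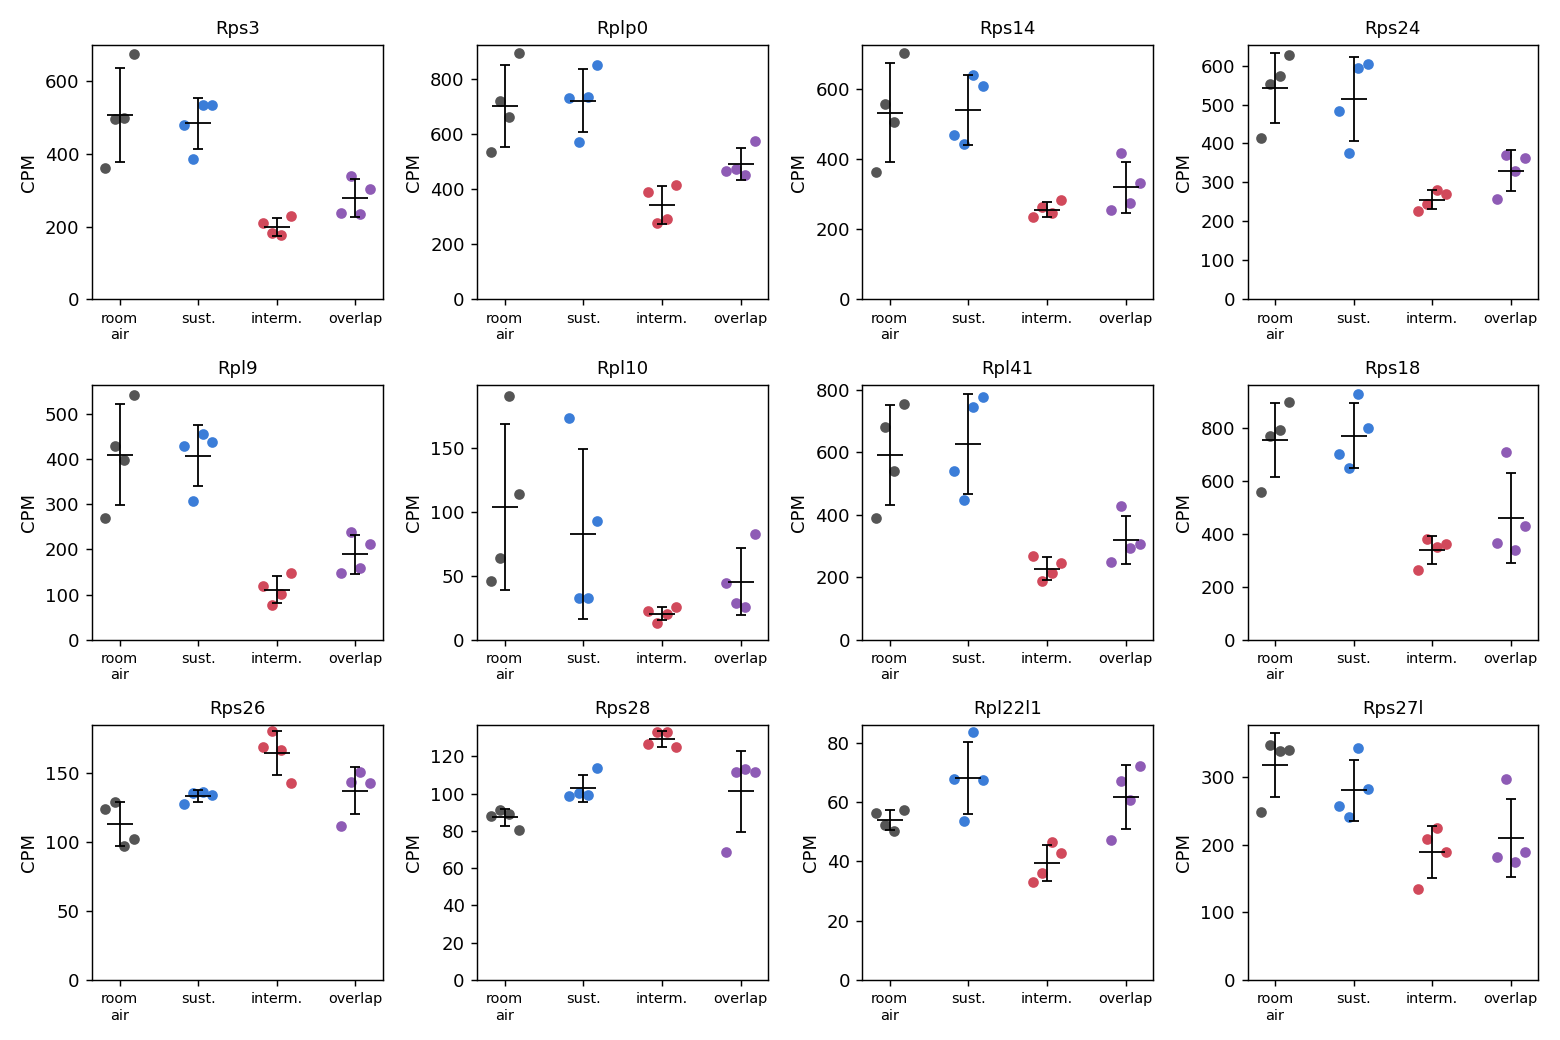
CPM with TMM scaling in each library for 12 members, with group mean and SD as bars (n = 4). Rps3, Rplp0, Rps14, Rps24, Rpl9, Rpl10, Rpl41 and Rps18 are lower in the 4 intermittent hypoxia libraries than in any room air library, Rps26 and Rps28 are higher, and Rpl22l1 is lower in intermittent hypoxia, with 3 overlap libraries above the room air range.

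A few members went the other way. Rps28 (ENSMUSG00000067288, chromosome 17, 33819027 to 33824562), which lines the mRNA exit, stood at 87.9, 91.0, 89.1 and 80.6 CPM in room air, 98.5, 100.05, 99.1 and 114 CPM in sustained hypoxia, 127, 133, 133 and 125 CPM in intermittent hypoxia and 68.6, 112, 113 and 112 CPM in overlap hypoxia. It rose 1.48-fold in intermittent hypoxia (log2 0.57, SE 0.14, adjusted p = 0.00299). Rps26 (ENSMUSG00000025362, chromosome 10, 128624534 to 128626747), its neighbour at the mRNA exit, stood at 124, 129, 96.9 and 102 CPM in room air, 127, 136, 136 and 134 CPM in sustained hypoxia, 169, 181, 167 and 143 CPM in intermittent hypoxia and 112, 144, 151 and 143 CPM in overlap hypoxia and rose 1.46-fold (log2 0.54, SE 0.13, adjusted p = 0.00265). For both genes the lowest intermittent library lay above the highest room air library.

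Rpl29 (ENSMUSG00000048758, chromosome 9, 106429454 to 106431568), also known as a heparin-binding protein, stood at 161, 174, 153 and 159 CPM in room air and 213, 219, 213 and 217 CPM in intermittent hypoxia (log2 0.42, SE 0.11, adjusted p = 0.00568). Rpl30 (ENSMUSG00000058600, chromosome 15, 34440505 to 34443640) stood at 145, 124, 129 and 122 and 204, 163, 152 and 201 CPM (log2 0.47, SE 0.15, adjusted p = 0.0174), and Rpl37 (ENSMUSG00000041841, chromosome 15, 5116645 to 5119140) at 95.1, 94.95, 91.0 and 85.5 and 114, 124, 122 and 103 CPM (log2 0.34, SE 0.12, adjusted p = 0.0361). The values did not overlap for any of the 3. The call of Rpl37 was lost without any 1 room air library, without intermittent replicate 1, 2 or 3, without sustained replicate 3 and without overlap replicate 4. That of Rpl30 was lost without room air replicate 2 or 4 and without intermittent replicate 1 or 4. The strand setting of the counting is not given, so reads from antisense genes cannot be told apart: D730044K07Rik covers 20.4% of the exonic bases of Rpl30, Vps52 6.37% of Rps18, Kank3 5.12% of Rps28 and Gm33051 7.99% of Rpl22l1. Larger overlaps are annotated in other members, among them 66.2% of Rpl35 (Arpc5l, Wdr38), 59.7% of Rpl23a (Tlcd1) and 24.3% of Rpl5 (Fam69a).

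The other 22 members did not pass. Rpl4, a protein that lines the exit tunnel of the nascent chain, stood at 288, 295, 286 and 294 CPM in room air and 311, 239, 276 and 309.5 CPM in intermittent hypoxia (log2 −0.03, SE 0.11, adjusted p = 0.837). All 22 lay between −0.30 (Rpl13) and 0.37 (Rps29) on the log2 scale, and among them the intermittent libraries lay below every room air library for 2 (Rpl23a, Rps2) and above for 4 (Rpl21, Rpl23, Rps20, Rps29).

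Ribosomal protein paralogs, whose products can replace the standard protein in some tissues, were described separately. Rps4x was placed among them only by the ending of its symbol. Rpl22l1 (ENSMUSG00000039221, chromosome 3, 28805436 to 28807424), the paralog of Rpl22, stood at 56.3, 52.1, 50.3 and 57.5 CPM in room air, 67.9, 53.6, 83.6 and 67.4 CPM in sustained hypoxia, 33.0, 36.0, 46.4 and 42.7 CPM in intermittent hypoxia and 47.1, 67.3, 60.7 and 72.1 CPM in overlap hypoxia. It fell in intermittent hypoxia (log2 −0.45, SE 0.15, adjusted p = 0.025) and 3 overlap libraries lay above the room air range and 1 below it. The call in intermittent hypoxia was lost without room air replicate 4 or intermittent replicate 1 or 2, with upper-quartile scaling and with the length and GC offsets. Rpl22 itself fell by 0.61 in intermittent hypoxia.

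Rpl7l1 (ENSMUSG00000063888, chromosome 17, 46773907 to 46782672), a nucleolar relative of Rpl7, went from 54.2 ± 4.57 to 31.1 ± 3.93 CPM (log2 −0.80, SE 0.13, adjusted p = 0.000144), and Rps27l, a paralog of Rps27 induced by p53, from 318.4 ± 47.3 to 189 ± 39.2 CPM (log2 −0.75, SE 0.19, adjusted p = 0.00367). Both lay below room air in all 4 libraries, and the call of Rps27l was lost with the length and GC offsets. Rps4x, an X-linked gene, stood at 199 ± 18.6 and 164 ± 37.8 CPM and did not pass (log2 −0.27, SE 0.16, adjusted p = 0.178). The paralogs of testis (Rpl10l, Rpl39l) and of striated muscle (Rpl3l) held 2.95, 16 and 22 counts over all 16 libraries, so nothing can be said of their changes.

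In overlap hypoxia fewer members were called. Of 80, 10 fell and 2 rose against room air, where 6.29% of all genes were called, 2.89% lower and 3.41% higher. The member median was −0.28, with −0.20 for the large and −0.33 for the small subunit, against 0.03 over all genes. All 10 had also fallen in intermittent hypoxia, a comparison that shares the room air libraries. They were Rpl9 (log2 −1.11, SE 0.22, adjusted p = 0.00884), Rps3 (log2 −0.87, SE 0.18, adjusted p = 0.00942), Rps24 (log2 −0.72, SE 0.17, adjusted p = 0.0175), Rpl41 (−0.89), Rps14 (−0.73), Rpl13a (−0.72), Rps18 (−0.71), Rps10 (−0.64), Rps9 (−0.62) and Rpl17 (−0.62). The 4 overlap libraries lay wholly below room air for 3 members (Rpl9, Rps3, Rps24) and wholly above for 4 (Rpl4, Rpl14, Rpl29, Rpl30), where the shares over all genes were 7.14% and 6.58%.

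Rpl30 rose to 153, 157, 232 and 217 CPM in overlap hypoxia (log2 0.54, SE 0.15, adjusted p = 0.036) and Rpl29 to 195, 188, 222 and 234.7 CPM (log2 0.38, SE 0.11, adjusted p = 0.0465), both without overlap with room air. Rps28 and Rps26 stood at 0.22 and 0.28 and did not pass. Single libraries moved the count of 12: it was 3 without room air replicate 2, 2 without room air replicate 3 or 4, 3 without overlap replicate 1, 2 without overlap replicate 3 and 20 without overlap replicate 2. It was 3 with the ribosomal RNA share as covariate, with which 2.48% of all genes were called. Of the 2 rises, 0 remained called without room air replicate 2, 3 or 4 or overlap replicate 3 or 4. Without overlap replicate 2 the 2 remained, and 1 remained when any other library was left out. With the covariate, or in a fit of only the 2 groups compared, 0 of these rises remained.

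Compared directly, overlap hypoxia was higher than intermittent hypoxia in 3 members and lower in none of the 80, where 6.15% of all genes were called (2.95% lower, 3.2% higher); the member median was 0.26. Rpl22l1 (log2 0.65, SE 0.15, adjusted p = 0.023), Rpl7l1 (log2 0.54, SE 0.13, adjusted p = 0.0271) and Rpl9 (log2 0.77, SE 0.22, adjusted p = 0.0452) were the 3, and in each the 4 overlap libraries lay above the 4 intermittent ones. In all, 12 of the 80 members lay wholly above intermittent hypoxia and 1 wholly below, where the shares over all genes were 5.52% and 5.68%. Unadjusted p was under 0.05 for 32 of the 80 members, beside 3689 of all 14553 genes. The count was 0 without intermittent replicate 2 or overlap replicate 4, 1 without intermittent replicate 3, 6 without overlap replicate 1, 7 without overlap replicate 3 and 13 without intermittent replicate 4.

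Sustained hypoxia alone called no member against room air (0 of 80 with edgeR, DESeq2 and limma-voom, 5 at an unadjusted p under 0.05 in edgeR), where 0.0481% of all genes were called (0.0275% lower, 0.0206% higher). Of all 14553 genes, 1672 were at an unadjusted p under 0.05 there. The member median was 0.06, and Rps3, Rplp0 and Rpl9 stood at −0.07, 0.04 and −0.01. Intermittent against sustained hypoxia called 58 members lower and 1 higher, Rpl5 (log2 0.37, SE 0.14, adjusted p = 0.049), where 38.4% of all genes were called (18.9% lower, 19.5% higher). Rpl5 summed with its pseudogenes stood the other way, at 464 ± 70.0 CPM in sustained and 179.6 ± 54.0 CPM in intermittent hypoxia. The member median there was −0.57. Overlap against sustained hypoxia called 1 member, Rpl9, lower (log2 −1.11, SE 0.22, adjusted p = 0.0466), where 0.165% of all genes were called (0.0275% lower, 0.137% higher). At an unadjusted p under 0.05 were 43 of the 80 members, beside 2978 of all 14553 genes. No member was called without any 1 of 11 libraries (room air replicate 2 or 3, any sustained replicate, intermittent replicate 1 or 3, overlap replicate 1, 3 or 4), and without overlap replicate 2 there were 29 calls and without room air replicate 1 or 4 there were 3.

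The departure of overlap hypoxia from the sum of both single exposures on the log2 scale was called in 0 of 80 members by edgeR and in 1 by DESeq2 and by limma-voom, where edgeR called 0.454% of all genes (0.234% lower, 0.22% higher). At an unadjusted p under 0.05 edgeR held 13 of the 80 members, beside 2544 of all 14553 genes. The median departure was 0.22, and it was positive in 58 members. Rpl7l1 had the lowest adjusted p (log2 0.69, SE 0.19, adjusted p = 0.0851).

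The balance of the subunits also differed between groups of libraries. The log2 ratio of summed large to summed small subunit CPM was 0.191 to 0.225 in room air and 0.213 to 0.256 in sustained hypoxia. It was 0.333 to 0.377 in intermittent and 0.266 to 0.342 in overlap hypoxia, so that all 8 of these libraries lay above all room air libraries. Group means were 0.208 ± 0.0161, 0.230 ± 0.0205, 0.348 ± 0.0197 and 0.311 ± 0.0372 in the order room air, sustained, intermittent and overlap (mean ± SD, n = 4). The ratio gives abundant genes more weight and is a description of the members as chosen. With each member summed with its pseudogenes it was 0.334 to 0.361 in room air, 0.409 to 0.458 in intermittent and 0.394 to 0.463 in overlap hypoxia, again without overlap. Over members with at most 50% of their words in other genes it was -0.594 to -0.378 in room air and -0.200 to -0.0936 in intermittent hypoxia, again without overlap, but -0.380 to -0.134 in overlap hypoxia, which overlapped room air. The share of ribosomal RNA was also higher in the intermittent hypoxia libraries than in room air, and its part in the ratio was not tested.

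Counts were assigned to pseudogenes as well as to members. In 20 members the pseudogenes held over 20% of the counts of both together, and the origin of those reads was not tested. Of the 83 genes 64 had at least 1 annotated pseudogene, 183 in all, with over 50% of its 50-base words found in the member. In 48 members over 50% of the words of the principal transcript occur in other genes. Among these 48, 34 fell and 2 rose in intermittent hypoxia (median −0.57), and among the 32 others tested 19 fell and 3 rose (median −0.44). The authors' counts divide shared reads by estimation, and in 13 members over 50% of the summed counts went to pseudogenes.

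For Rpl5, Rpl12 and Rpl10a the split cannot be checked from coding sequence at all. The coding sequence of Rpl5 (894 bases), which with Rpl11 and 5S ribosomal RNA restrains MDM2, is identical over its whole length to a stretch of Gm15500 (ENSMUSG00000086583, chromosome 7, 114705217 to 114706235). The same holds for the 498 bases of Rpl12 in Gm10275 and the 654 bases of Rpl10a in Rpl10a-ps1. The first 60 coding bases, read from the GENCODE M21 transcripts of GRCm38, are printed to show this identity; they hold no capitals because no base differs.
Rpl5: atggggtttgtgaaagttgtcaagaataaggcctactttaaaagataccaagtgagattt
Gm15500: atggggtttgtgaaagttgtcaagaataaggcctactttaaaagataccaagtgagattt
Rpl10a: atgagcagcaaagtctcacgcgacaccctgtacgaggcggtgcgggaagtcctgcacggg
Rpl10a-ps1: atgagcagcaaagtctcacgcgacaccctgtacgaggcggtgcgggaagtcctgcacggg

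Summing each member with its pseudogenes before the fit gave 54 lower and 7 higher members in intermittent hypoxia, where 37.2% of all genes were called (18.2% lower, 18.9% higher), and 51 were lower both ways. Rpl5 alone stood at 25.2 ± 3.14 CPM in room air and 23.5 ± 3.33 in intermittent hypoxia (log2 −0.10, adjusted p = 0.621), while the sum with its pseudogenes went from 500.3 ± 149 to 179.6 ± 54.0 CPM (log2 −1.48, adjusted p = 9.46e-05). Gm15500 held 94.0% of that sum and fell by 1.61. Rpl10 moved from −2.35 to −1.10 when summed (adjusted p = 0.0165), Rpl10a from −0.68 to −1.24, Rps7 from −1.003 to −0.51, Rpl11 from −0.89 to −0.52 and Rpl27a from −0.26 to −0.57. In all, 9 members moved by over 0.2. The plot of single against summed changes shows most members on the diagonal and these few off it.

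**Figure D4:**
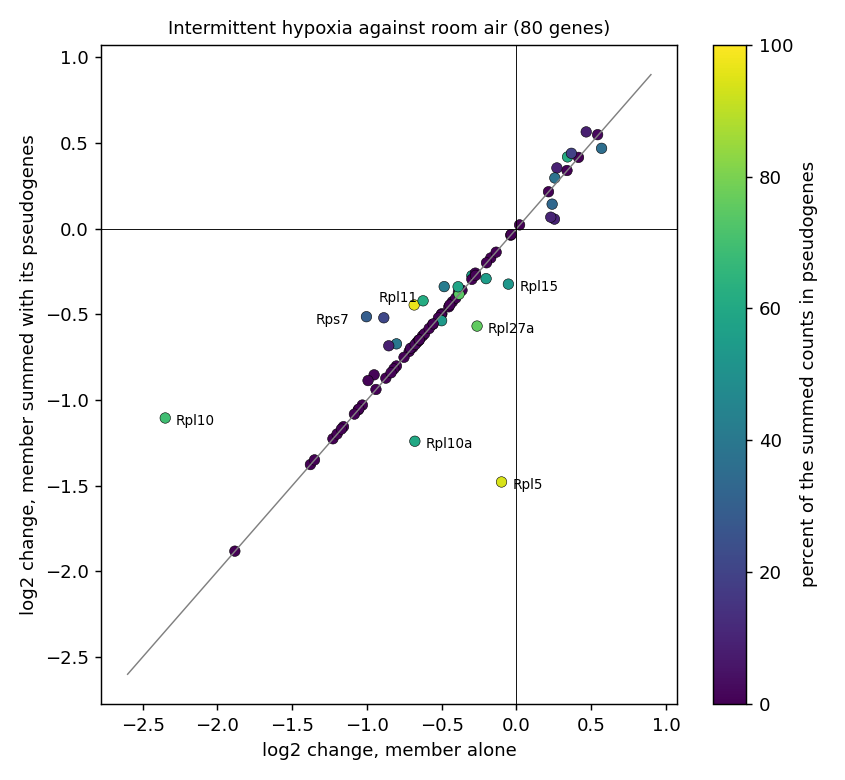
Log2 change in intermittent hypoxia against room air for each of the 80 members counted alone (x axis) and summed with its pseudogenes (y axis), coloured by the percent of the sum that the authors' counts gave to pseudogenes; the grey line marks equal values. Rpl5 lies at −0.10 and −1.48, Rpl10 at −2.35 and −1.10, and most other members lie on the line.

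The start of these genes was examined for a pyrimidine run like the one named above. The search took a run near the annotated start and not only at the first base of the mRNA. It therefore cannot sort the members into TOP and other genes. RefSeq promoters of GRCm38.p6 were found for 63 of 83 symbols, 75 promoters in all, each 250 bases before to 50 after the annotated start. A run of at least 6 letters C or T that opens with C and comes within 10 bases of the start, on the coding strand, was present in 38 of the 75 (50.7%) and in 22.9% of all 32851 promoters of this length. The 15 bases before and after the start are printed for 4 genes that fell in intermittent hypoxia (Rps18, Rps9, Rps10, Rpl35), 1 that rose (Rps26) and 2 that did not pass (Rpl15, Rpl38), to show that the run is found in all these classes; the run is in capitals. Rpl15 passed when summed with its pseudogenes, at −0.32. These 7 genes were chosen after their values were seen.
Rps18 (chr17:33955651-33955680, minus strand): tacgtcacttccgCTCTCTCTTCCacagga
Rps9 (chr7:3704026-3704055, plus strand): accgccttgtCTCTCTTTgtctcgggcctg
Rps10 (chr17:27635230-27635259, minus strand): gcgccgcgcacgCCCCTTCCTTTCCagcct
Rpl35 (chr2:39005117-39005146, minus strand): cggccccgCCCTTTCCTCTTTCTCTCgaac
Rps26 (chr10:128626492-128626521, minus strand): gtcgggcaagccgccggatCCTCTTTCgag
Rpl15 (chr14:18270972-18271001, minus strand): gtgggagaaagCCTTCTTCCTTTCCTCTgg
Rpl38 (chr11:114668565-114668594, plus strand): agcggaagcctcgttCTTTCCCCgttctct

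Of the 36 tested members with such a run 25 fell and 1 rose in intermittent hypoxia (median −0.54), and of the 24 with a promoter but no run 17 fell and 2 rose (median −0.62). The motif CTCTTTC, on either strand, was found in 28% of member promoters and 8.16% of all, and CCGGAAG, the core bound by ETS factors, in 36% and 8.86%; CTCTTTC can lie within the C or T run. A match is a string of letters and not a measured site.

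Transcript length and change were related over all genes. Across 14540 genes the Spearman correlation between exonic length and log2 change was 0.257 in intermittent, 0.208 in overlap and −0.120 in sustained hypoxia. These are descriptions over genes that share the same libraries. Within the 80 members, with the length of the principal transcript, it was −0.02, 0.11 and −0.11. The 20 shortest members (271 to 517 bases) had 14 lower and 1 higher in intermittent hypoxia with a median of −0.63, and the 20 longest (977 bases to the 3706 of Rps20) 12 lower and 0 higher with a median of −0.50. 

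Other genes of the ribosome and of translation were counted from lists written for this purpose; the genes named are among the 4 with the lowest p in each. The counts stand beside 18.3% of all genes lower and 18.9% higher in intermittent hypoxia. Of 4 ribosomal proteins whose symbols fall outside the rule 3 fell and 1 rose in intermittent hypoxia (median −0.60). Rack1, a scaffold on the small subunit, went from 554 ± 118 to 246 ± 31.1 CPM (log2 −1.17, SE 0.17, adjusted p = 4.08e-05), and Fau, which encodes Rps30 fused to a ubiquitin-like protein, changed by −0.77.

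Of 16 TOP mRNAs of translation 10 fell and 1 rose (median −0.42), led by Eef1a1, the factor that delivers tRNA to the ribosome, which went from 5158 ± 1124 to 2136 ± 475 CPM (log2 −1.27, SE 0.19, adjusted p = 6.03e-05). Of 9 elongation and termination factors, among them Eef1a1 again, 8 fell and 0 rose (median −0.53), Gspt1, a release factor, by 1.17. Of 35 initiation factors 22 fell and 1 rose (median −0.50), with the eIF3 subunits Eif3i and Eif3m at −1.32 and −1.07 and the eIF2 subunits Eif2s1 and Eif2s2 at −1.14 and −0.85. Of 8 host genes of small nucleolar RNAs 2 fell, Zfas1 (−1.45) and Snhg1 (−0.60), 0 rose and 6 did not pass (median −0.37). This is a called share below the 37.1% of all genes, while the share that fell lay above the 18.3% of all genes called lower.

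Of 50 ribosome biogenesis genes 22 fell and 1 rose (median −0.38), led by Nop16, a nucleolar protein of the large subunit's precursors (log2 −0.998, SE 0.13, adjusted p = 2.11e-05). Of 15 RNA polymerase I genes 3 fell, 2 rose and 10 did not pass (median −0.27), also a called share below the 37.1% of all genes. Polr1c and Polr1d, subunits shared with RNA polymerase III, stood at −1.46 and −0.96, and Polr1a, the largest subunit, and Ttf1, the termination factor, at 0.78 and 0.74. Of 25 genes of mTORC1 and its TOP regulators 9 rose and 5 fell (median 0.32). The 4 with the lowest p all rose. They were the mTORC1 brakes Tsc1 (1.42), Tsc2 (0.77) and Nprl3 (0.98), and the translation repressor Eif4ebp2 (log2 1.17, SE 0.18, adjusted p = 8.69e-05). The 5 that fell are not named, and 11 of the 25 did not pass. Changes were positive in 13 of the 25 and negative in 12, and mTORC1 activity was not tested.

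The proteins of the mitochondrial ribosome are encoded by other nuclear genes. Of these 78 genes 56 fell and 3 rose in intermittent hypoxia (median −0.56) and 14 fell and 2 rose in overlap hypoxia (median −0.26), beside 53 and 5 and 10 and 2 of 80 cytosolic members. Mrpl28 went from 83.8 ± 15.2 to 36.2 ± 4.89 CPM (log2 −1.21, SE 0.16, adjusted p = 1.79e-05). Whether the 2 lists differ was not tested. In overlap hypoxia the other lists held 2 calls or fewer each, where 2.89% of all genes were called lower and 3.41% higher. In sustained hypoxia none of the 9 lists held a call. The plot of list medians shows 8 of the 9 other lists below 0 in intermittent hypoxia, with the list of mTORC1 and TOP regulators above it.

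**Figure D5:**
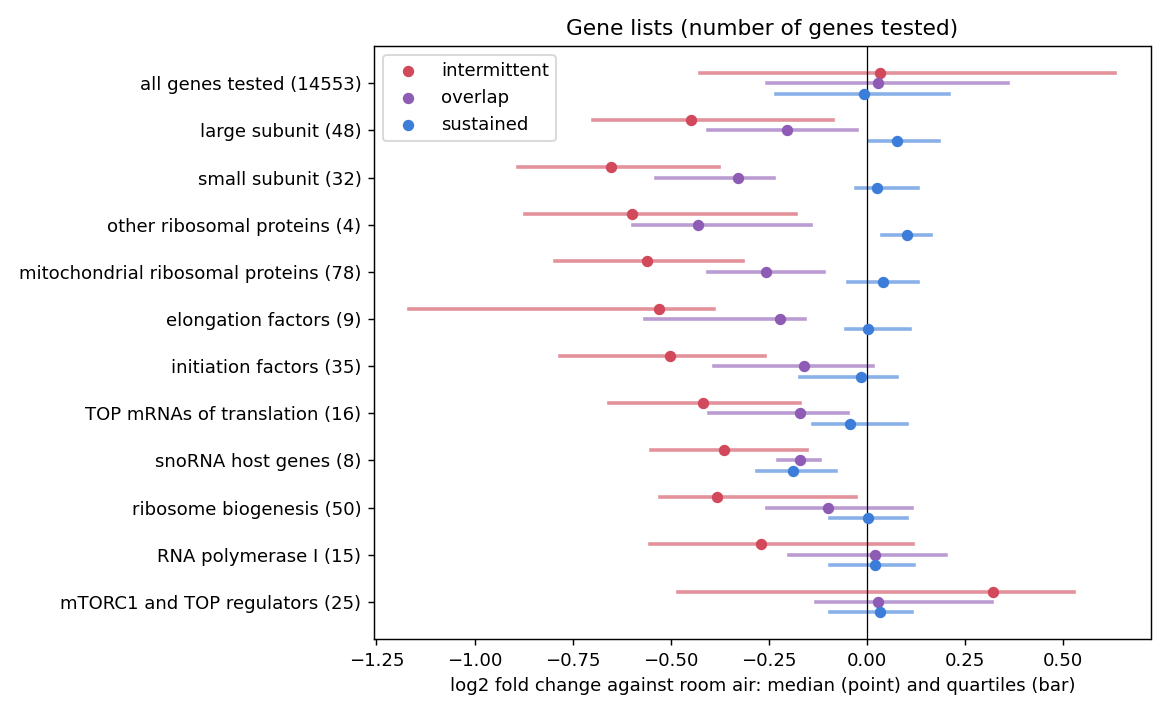
Median (point) and quartiles (bar) of the log2 fold change against room air for all genes tested, both subunits and 9 other lists, with the number of genes tested in brackets. The median of intermittent hypoxia is 0.03 over all genes, −0.45 for the large and −0.65 for the small subunit and −0.56 for mitochondrial ribosomal proteins.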

How the data were processed

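RNA from 16 liver libraries was sequenced, and the authors deposited RSEM expected counts per gene. Reads were aligned with Bowtie 1.3.0 to GRCm38 and quantified with RSEM, per the submitters' processing notes; the strand setting is not given in the sources used here. RSEM divides reads shared between genes by estimation, which bears on ribosomal protein genes and their pseudogenes. Expected counts were rounded and fitted with edgeR 4.0.16 in R 4.3.3 (filterByExpr, TMM scaling, robust quasi-likelihood, 1 coefficient per group), with Benjamini-Hochberg adjustment over 14553 genes and calls at 0.05. CPM values use the TMM-scaled library sizes. Alternatives used DESeq2 1.42.0, limma 3.58.1 (voom), other scalings, covariates, summed pseudogenes and left-out libraries. Shares of 50-base words came from GENCODE M21 transcripts.

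The members and lists were chosen with earlier results of these data known. Named by rule were the 6 markers, the paralogs, up to 10 called members with the largest fall and up to 5 with the largest rise per comparison without overlap of the groups and with at least 2 CPM, all called members of comparisons with 5 calls or fewer, and up to 4 genes of lowest p per other list. Members named outside this rule were chosen after their values were seen. The fitting step was tested on simulated data. Values of 2 genes are not reported here.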

Additional observations from a re-analysis of the deposited data

Results flagged for a closer look

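Among 92 groups of 4 libraries of the named members, 6 held a library far from the others by Dixon's test at its 95% critical value, and chance gives about 1 in 20. Rps27l was low in room air replicate 1, at 248 CPM, and high in overlap hypoxia replicate 2, at 297 CPM. Rps28 was high in sustained hypoxia replicate 4, at 114 CPM, and low in overlap hypoxia replicate 1, at 68.6 CPM. Rpl7l1 was low in sustained hypoxia replicate 2, at 39.8 CPM, and Rplp0 was high in overlap hypoxia replicate 4, at 577 CPM.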

How the results depend on the processing

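The count of members called in intermittent hypoxia against room air (58) was 0 with the ribosomal RNA share as covariate and 46 to 59 when 1 library was left out, and against sustained hypoxia (59) it was 0 with that covariate. For overlap against intermittent hypoxia the count (3) was 10 with DESeq2, 8 with no filter on low counts, 0 with only the groups compared, 0 with the covariate, 5 with pseudogenes summed and 0 to 13 when 1 library was left out. For overlap hypoxia against room air the count (12) was 22 with limma-voom, 4 with only the groups compared, 3 with the covariate and 2 to 20 when 1 library was left out. For overlap against sustained hypoxia the count (1) was 19 with DESeq2, 27 with limma-voom, 13 with no filter, 2 with upper-quartile scaling, 0 with offsets, 0 with only the groups compared, 0 with the covariate and 0 to 29 when 1 library was left out. The departure from the sum of both exposures (0) gave 1 with DESeq2 and 1 with limma-voom; it could not be fitted with only the groups compared. With the replicate number as a block the counts were 11 for overlap against intermittent, 8 for overlap against sustained hypoxia and 1 for the departure. The labels do not say whether the numbers pair the samples, and these values do not settle it. Deviations of 24 same-numbered pairs correlated at −0.103 to 0.183 (median 0.037), against a median of −0.020 in 72 pairs of other numbers. Of 16 libraries 8 were closest to their own number. The cause of these moves was not tested. For most of these settings and left-out libraries the share of all genes called is not given. The moves of the members therefore cannot be set apart from moves of all genes. Among the named members' changes in intermittent hypoxia against room air, 320 kept their side of the threshold when 1 library was left out and 16 lost their call. In overlap hypoxia against room air 267 kept it, 61 lost it and 8 gained one. No named member reversed its direction after a call in these comparisons, while Rpl5 in intermittent against sustained hypoxia stood the other way once summed with its pseudogenes.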
